A study of Rattus norvegicus with 4 samples.

Results

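The genes described here encode 10 secreted or shed factors that act on blood vessels or on neighboring cells: Vegfa, Vegfb, Vegfc, Pgf, Stc1, Adm, Prok2, Angptl4, Efna1 and App. They were selected on their known difference between 3D and 2D culture and on their known roles, and all 10 were found among the 23360 gene symbols of the files. The cells were INS-1 832/3, a clonal rat insulinoma line that secretes insulin and carries a human insulin gene, and their polyadenylated RNA was sequenced after 5 days at passage 3. The 2 control cultures were grown as a standard monolayer (2D) and the 2 others were bioprinted in GelXA LAMININK 411, a gelatin-based hydrogel with laminin, and kept in 3D culture. The labels name no other cell type in any of the 4 cultures, so the response of vessel cells was not measured here.

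Vascular endothelial growth factors (VEGFs) are secreted ligands of receptor tyrosine kinases on endothelial cells. Vegfa is the main member in islets, where beta cells release it and thereby maintain a dense, fenestrated capillary bed. Its transcription is raised by low oxygen through hypoxia-inducible factors (HIF), as is that of several other factors described here. Receptors are partly shared within the VEGF family. Transcript levels describe what the cells could send out and not whether a signal was received.

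Levels are given in TPM, which the authors computed with Salmon and which share out 1000000 units among the transcripts of a culture after correction for transcript length, so that different genes can be compared. The read numbers behind them are lost in this unit, and the spread of 2 cultures is the only error available. Between 19355 and 19959 transcripts per culture were above 0. All 15 beta-cell markers that were matched had a mean of at least 1 TPM. Together they took between 156488 and 179724 of the 1000000 TPM of a culture, most of it from Ins1 with 114003 to 137822 TPM. Of the 9 endothelial markers matched, 4 were listed at 0 in all cultures (Cdh5, Tie1, Emcn and Cldn5). Pecam1, also on that list, was not matched, so its level is unknown here. The summed endothelial level was 17.3 and 18.7 TPM in 2D and 18.4 and 20.9 TPM in 3D culture, of which Esam alone gave 16.0 to 18.8 TPM. The stromal list summed to 211 and 214 TPM in 2D and 180 and 211 TPM in 3D culture, nearly all from Thy1, with Pdgfrb, Dcn and Lum at 0. The leukocyte list stayed between 0.635 and 1.47 TPM, with Ptprc at 0.

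Because that difference was used to choose the 10 factors, their values are given as a description and without a test. Log2 fold changes (3D minus 2D) and their standard errors come from a fit with limma over 11959 genes with a mean of at least 1 TPM, on log2(TPM + 1) after scaling between samples, a scale that understates the change of genes with low TPM. Of the 10 factors, 5 passed this filter (Vegfa, Vegfb, Stc1, Prok2 and App), and all 5 were above the monolayer in both 3D cultures. In the same fit, 37.9% of all genes tested had an adjusted p below 0.05, 18.5% being higher and 19.4% lower in 3D culture. In 9.67% of the genes tested the log2 fold change was at least 0.5. Among all genes tested, both 3D cultures lay above both monolayer cultures in 37.3% and below both in 38.2%, so separation of the groups is common in these samples and nothing is read from it for the factors.

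The bases before the start site of 3 of these genes are shown because they are the 2 well-expressed VEGF genes and the factor with the largest fold change among those that passed the filter, with the promoter windows of RefSeq on the rat assembly GRCr8 as the source. Capitals mark ACGTG or GCGTG on either strand, the core letters of hypoxia response elements. Vegfa, chr9:22452604-22452853, plus strand, has none in this stretch:
Vegfa: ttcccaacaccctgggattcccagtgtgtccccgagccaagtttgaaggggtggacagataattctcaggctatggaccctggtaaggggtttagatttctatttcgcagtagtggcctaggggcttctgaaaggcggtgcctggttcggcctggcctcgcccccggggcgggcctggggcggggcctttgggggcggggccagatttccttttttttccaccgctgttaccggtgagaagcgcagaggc
Vegfb, chr1:213607153-213607402, minus strand, has 1:
Vegfb: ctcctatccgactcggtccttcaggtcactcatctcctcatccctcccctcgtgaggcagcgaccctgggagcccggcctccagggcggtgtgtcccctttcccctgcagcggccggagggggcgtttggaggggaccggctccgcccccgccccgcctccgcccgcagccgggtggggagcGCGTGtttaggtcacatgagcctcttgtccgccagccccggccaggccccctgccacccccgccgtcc
Prok2, chr4:133917934-133918183, minus strand, has 9, of which a CACGTG gives 2 because it reads as ACGTG on both strands:
Prok2: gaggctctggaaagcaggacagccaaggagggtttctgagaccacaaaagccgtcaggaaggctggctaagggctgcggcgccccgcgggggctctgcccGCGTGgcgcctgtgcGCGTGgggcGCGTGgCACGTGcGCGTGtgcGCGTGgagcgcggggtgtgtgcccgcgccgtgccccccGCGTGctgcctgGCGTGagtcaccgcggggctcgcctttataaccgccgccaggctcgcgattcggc

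Motifs were searched on both strands of windows that hold 250 bases before and 50 bases after a start site, and 9 of the 10 factors had one (Stc1 did not). ACGTG or GCGTG was present in 5 of the 9, with 41.6% of all 33469 promoter windows holding either. Prok2 had 10 matches over its whole window, 9 of them between 150 and 55 bases before the start. At least as many were found in 24 windows, or 0.0717% of all. This share was looked up for Prok2 alone and without matching windows for GC content, so nothing is read from it. The E-box CACGTG was found in 1 of the 9 windows, that of Prok2, and in 6.42% of all. TGACG, the core of the cAMP response element, was also in that of Prok2 alone (21.2% of all windows). GGGCGG, the GC box bound by SP1-type factors, was in 8 of the 9 windows, against 33.1% of all, and Vegfa had 3 of them, at 84, 73 and 58 bases before the start. The 9 windows counted had a GC content of 58.0% to 73.7%, and the median of all windows was 51.7%. A match is a run of letters in a reference genome and was not shown to be a bound site. Windows of other start sites of these genes, such as a second one listed for Vegfa, are not counted here. Bases farther from the start were not searched, so a window without a match, such as that of Vegfa, does not show that the gene lacks such an element. The authors named another build (rn4) as their reference, so these positions belong to the sequences alone.

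Prok2, which encodes prokineticin 2, a small secreted peptide that acts on endothelial cells, neurons and smooth muscle, had the largest fold change of the 5 factors that passed the filter. It had 6.20 and 6.94 TPM in 2D, against 44.7 and 52.7 TPM in 3D. The lowest 3D culture was therefore far above the highest monolayer culture. The means were 6.57 ± 0.524 TPM (SD, n = 2) and 48.7 ± 5.62 TPM (SD, n = 2), a ratio of 7.41. The log2 fold change was 2.67 (standard error 0.11), and it stayed between 2.57 and 2.82 over 7 other settings, 4 of which left out 1 culture each. Because whole cultures were sequenced, more transcript per cell and more cells that express the gene cannot be told apart, here and for the other factors.

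Stc1, the gene of stanniocalcin 1, a secreted glycoprotein known for its effects on calcium and phosphate transport, had the second largest fold change of these 5. Its levels were 24.8 and 28.6 TPM in 2D, against 57.8 and 66.4 TPM in 3D. The groups did not overlap, and the 3D mean of 62.1 ± 6.05 TPM (SD, n = 2) was 2.33 times the monolayer mean of 26.7 ± 2.70 TPM (SD, n = 2). The log2 fold change was 1.15 (standard error 0.11), with a range of 1.01 to 1.28 over the other settings.

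Among the VEGF genes, Vegfa and Vegfb were well expressed and Vegfc and Pgf were not. Vegfa had 156 and 137 TPM in 2D, against 243 and 214 TPM in 3D. The lower 3D culture was well above the higher monolayer culture. The means were 147 ± 14.0 and 229 ± 20.8 TPM (SD, n = 2 each), a ratio of 1.56. This placed Vegfa at rank 775 of 15293 and 885 of 15180 detected genes in the monolayer cultures, and at rank 499 of 15434 and 569 of 15589 in the 3D cultures.

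Vegfb, whose product binds the receptor Flt1 and is linked to fatty acid handling more than to vessel growth, had 26.2 and 26.6 TPM in 2D, against 39.3 and 37.5 TPM in 3D. Both 3D cultures were above both monolayer cultures, with means of 26.4 ± 0.312 and 38.4 ± 1.30 TPM (SD, n = 2 each). Its log2 fold change of 0.48 (standard error 0.067) ran from 0.43 to 0.53 over the other settings. Vegfa exceeded Vegfb by 5.98 and 5.14 times in the monolayer cultures and by 6.19 and 5.71 times in the 3D cultures, ranges that overlap. Vegfa therefore made up a like share of the summed VEGF transcripts in both groups, 84.3% ± 1.32 in monolayer and 85.3% ± 0.757 in 3D culture (SD, n = 2 each). The sum itself was 184 and 164 TPM in 2D, against 283 and 252 TPM in 3D.

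Vegfc, the ligand of the lymphatic receptor Flt4, had 0.865 and 0.617 TPM in 2D, against 0.728 and 0.841 TPM in 3D, so the groups overlapped. Pgf, the gene of placental growth factor, was lower still, with 0.0477 and 0.0260 TPM in 2D, against 0.0326 and 0.0561 TPM in 3D, which also overlapped. Neither passed the filter, and no difference was detectable at these levels.

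**Figure D1:**
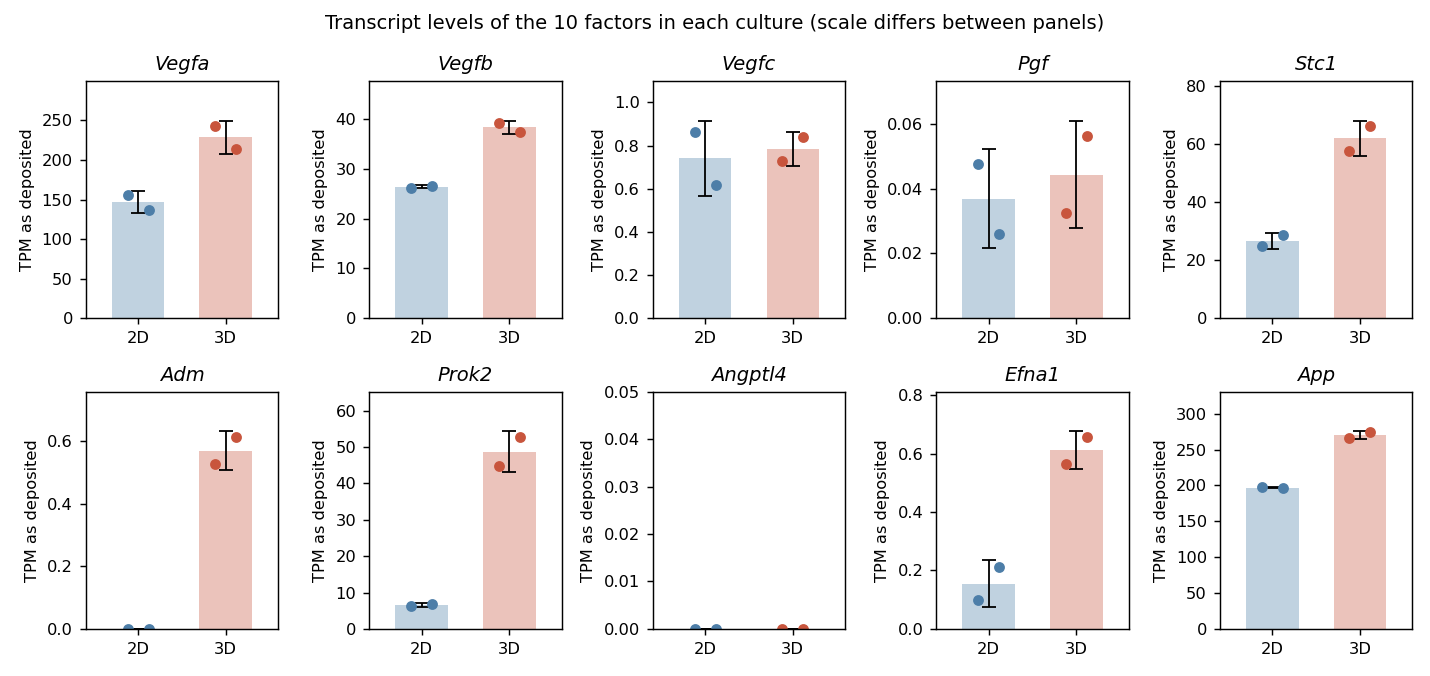
Transcript level (TPM as deposited) of each of the 10 factors in 2D monolayer (blue) and 3D-bioprinted (red) culture, with a separate scale in every panel. Points are single cultures, bars are means and error bars are the SD of 2 cultures. Both 3D points lie above both 2D points in 7 panels, while those of Vegfc and Pgf overlap and Angptl4 is at 0.

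App encodes the amyloid precursor protein, a membrane protein of neurons and endocrine cells whose outer part is shed by secretases. It was the most abundant of the 10 factors, with 198 and 196 TPM in 2D, against 266 and 274 TPM in 3D. The 2 cultures of a group lay close together, at 197 ± 1.25 and 270 ± 5.43 TPM (SD, n = 2 each), and the groups did not overlap. Its log2 fold change of 0.41 (standard error 0.054) was the smallest of the 5 factors that passed the filter.

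Efna1, a membrane-anchored ligand of EphA receptors that can be released by cleavage, was barely detected, with 0.0973 and 0.212 TPM in 2D, against 0.565 and 0.658 TPM in 3D. Both 3D values were above both monolayer values. Adm, which encodes the vasodilator peptide adrenomedullin, was listed at 0 in both monolayer cultures and had 0.526 and 0.614 TPM in 3D culture. No fold change can be given against a group at 0. Angptl4, a secreted inhibitor of lipoprotein lipase and a known HIF and PPAR target, was listed at 0 in all 4 cultures. Among the 16749 genes above 0 in any culture, both 3D cultures lay above both monolayer cultures in 35.6%, so the separation of Efna1 and Adm is an ordinary one at this number of cultures.

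The order of levels in monolayer was App, Vegfa, Stc1, Vegfb, Prok2, Vegfc, Efna1 and Pgf, with Adm and Angptl4 at 0. Stc1 and Vegfb could not be separated there, since the values of Vegfb fell within the range of Stc1. In 3D culture the order was App, Vegfa, Stc1, Prok2, Vegfb, Vegfc, Efna1, Adm and Pgf. By rank among detected genes, Prok2 went from 8924 and 8415 in the monolayer cultures to 2637 and 2306 in the 3D cultures. Prok2, which had been well below Vegfb in both monolayer cultures, was above it in both 3D cultures. Efna1 and Adm overlapped in 3D culture, and the other neighbors in either order did not overlap. The 10 factors together had 412 and 396 TPM in 2D, against 653 and 646 TPM in 3D. App and Vegfa gave 85.0% ± 1.29 of this sum in monolayer and 76.7% ± 1.80 in 3D culture (SD, n = 2 each). The ratio of Vegfa to Prok2 was 25.2 and 19.7 in monolayer and 5.44 and 4.06 in 3D culture.

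**Figure D2:**
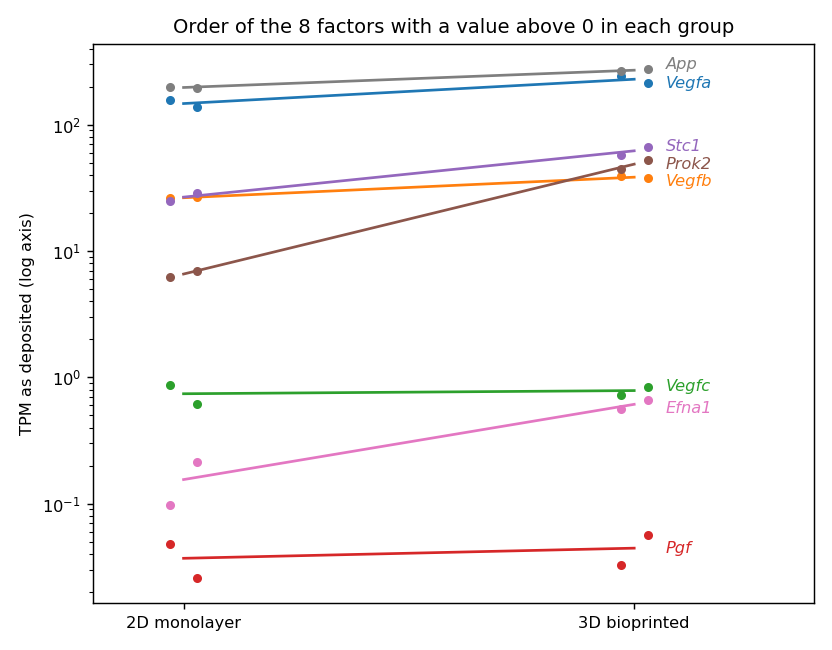
Level of the 8 factors with a value above 0 in each group (TPM as deposited, log axis), with 1 color per gene, points for single cultures and lines joining the group means. The line of Prok2 starts below that of Vegfb in 2D culture (6.57 against 26.4 TPM) and ends above it in 3D culture (48.7 against 38.4 TPM).

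Vegfa was listed with 6 transcripts, and 2 of them carried most of its TPM. ENSRNOT00000026559.5 had 104 and 85.4 TPM in 2D, against 148 and 129 TPM in 3D. ENSRNOT00000044163.4 had 43.1 and 41.6 TPM in 2D, against 80.1 and 70.2 TPM in 3D. For both transcripts the 3D cultures were above the monolayer cultures, by a ratio of means of 1.46 for the first and 1.78 for the second.

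The share of Vegfa TPM on ENSRNOT00000026559.5 was 66.7% and 62.4% in monolayer and 60.7% and 60.4% in 3D culture. The share on ENSRNOT00000044163.4 was 27.5% and 30.4% in monolayer and 32.9% and 32.8% in 3D culture. The shares of the groups did not overlap for either transcript, but the monolayer cultures were farther from each other than the nearest monolayer and 3D cultures were. Another transcript, ENSRNOT00000026637.7, had 8.02 and 8.36 TPM in 2D, against 13.9 and 14.1 TPM in 3D, and its share of 5.13% to 6.61% overlapped between groups. ENSRNOT00000042790.3 and ENSRNOT00000083811.1 stayed at or below 1.42 TPM with overlapping groups, and ENSRNOT00000085241.1 was listed at 0 in all cultures. With the most abundant transcript alone in place of the sum, the log2 fold change of Vegfa was 0.50 instead of 0.59 (standard error 0.088). Transcripts of 1 gene share most of their sequence, so their shares depend on how the quantification divided the reads.

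Prok2 was listed with 2 transcripts, and both were higher in 3D culture. ENSRNOT00000015075.2 had 4.65 and 6.55 TPM in 2D, against 34.8 and 36.5 TPM in 3D, and ENSRNOT00000015058.4 had 1.55 and 0.395 TPM against 9.87 and 16.1 TPM. The share of the first was 75.0% and 94.3% in monolayer and 77.9% and 69.4% in 3D culture, so the shares overlapped. App was also listed with 2 transcripts, and ENSRNOT00000048854.6 carried 73.5% and 76.9% of its TPM in monolayer and 75.1% and 72.3% in 3D culture. The groups overlapped, and both App transcripts were above the monolayer in both 3D cultures. The other 7 factors had 1 transcript each.

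**Figure D3:**
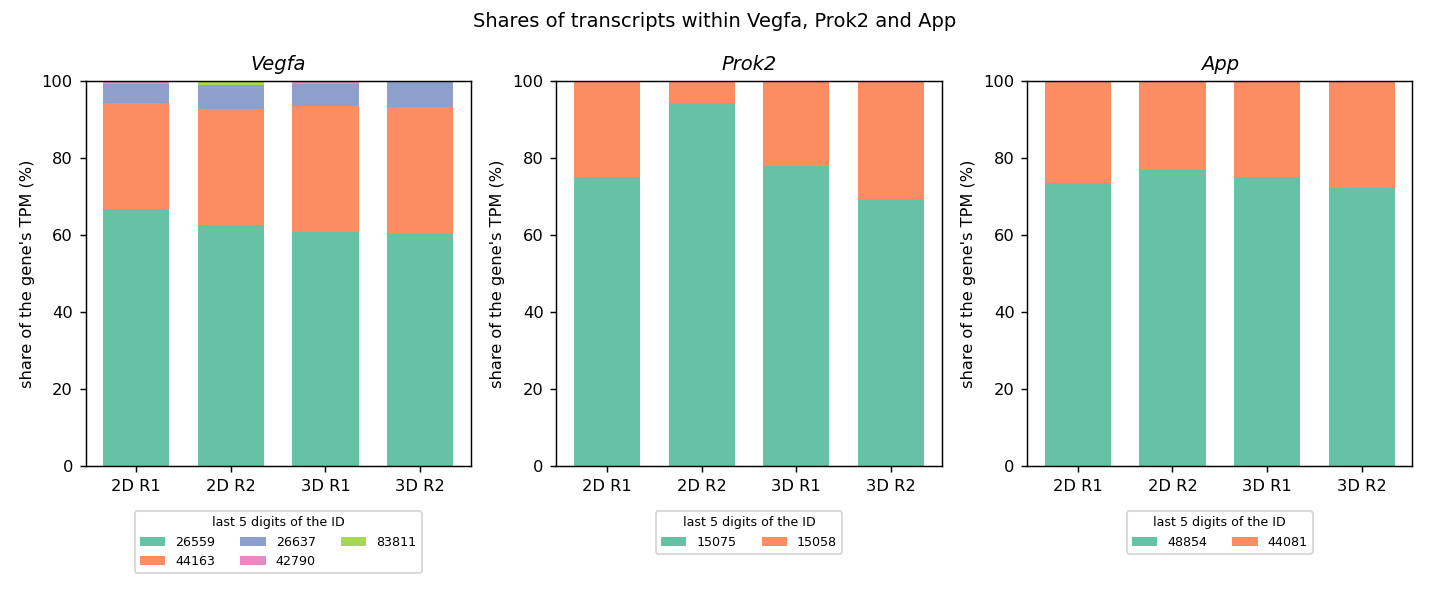
Share of each listed transcript in the TPM of Vegfa, Prok2 and App, in percent, for the 4 cultures (R1 and R2 are replicates). Colors stand for transcripts, named by the last digits of their identifiers. The largest part of the Vegfa bars takes 66.7% and 62.4% in 2D and 60.7% and 60.4% in 3D culture, and the parts of App and Prok2 overlap between groups.

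Most of the receptors listed for the VEGFs, Prok2, Adm and Efna1 did not pass the filter. The list held none chosen for Stc1, App or Angptl4. For the VEGFs, Flt1 was at 0 in 3 cultures and at 0.00548 TPM in the other, and Flt4 did not exceed 0.0229 TPM. Kdr, the main signaling receptor of Vegfa, had 0.965 and 1.00 TPM in 2D, against 1.27 and 1.48 TPM in 3D (limma, adjusted p = 0.198). The coreceptor Nrp1 had 5.22 and 4.68 TPM against 5.15 and 6.78 TPM (adjusted p = 0.291 in limma), and Nrp2 did not exceed 0.295 TPM. The prokineticin receptors Prokr1 and Prokr2 were at or below 0.0531 and 0.253 TPM. Of the adrenomedullin receptor parts, Calcrl did not exceed 0.0721 TPM and Ramp3 0.396 TPM. Ramp2 had 33.2 and 34.6 TPM in 2D, against 29.3 and 32.8 TPM in 3D (limma, adjusted p = 0.141). Ackr3, also listed, had 2.13 and 2.06 TPM in 2D, against 2.56 and 3.53 TPM in 3D (limma, adjusted p = 0.106). Of the EphA receptors, Epha8 rose from 5.25 and 4.66 TPM to 16.1 and 13.2 TPM (log2 fold change 1.35, standard error 0.11, adjusted p = 0.00372 in limma). Epha1 and Epha7, the others above the filter, had adjusted p of 0.600 and 0.0789 in limma. Epha10 had 0.496 and 0.541 TPM in 2D, against 1.62 and 1.14 TPM in 3D, and Epha2 did not exceed 0.643 TPM. Neither passed the filter.

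Over the whole list of 39 receptors of vascular growth factors, 16 passed the filter. In limma 5 of them rose, or 31.2% beside 18.5% over all genes tested, and the other 11 did not pass the threshold. The median log2 fold change of the list was 0.21, beside -0.0032 over all genes tested. Besides Epha8 the rises were those of the fibroblast growth factor receptors Fgfr1, Fgfr3 and Fgfr4 and of Met, the receptor of hepatocyte growth factor. Fgfr1 went from 12.4 and 13.8 TPM to 28.7 and 23.8 TPM (log2 fold change 0.90, adjusted p = 0.00654 in limma). Fgfr4 had a log2 fold change of 0.58 and Met of 0.54. Leaving out either 3D replicate leaves that group with 1 culture assumed to vary like the monolayer. Fewer genes were then called in this list, and likewise over all genes tested.

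A list of 88 other genes, mostly of secreted or membrane ligands with vascular or paracrine roles, was written from gene function, and 86 were matched. It also held Fgf12, Fgf13 and Fgf14, whose products are mainly intracellular and which are included in the counts below. Of the 28 that passed the filter, 11 rose (39.3%) and 1 fell (3.57%) in limma, with a median log2 fold change of 0.36. Over all genes tested, 18.5% rose and 19.4% fell, with a median of -0.0032. Among those with a mean of at least 5 TPM, Hbegf, an EGF receptor ligand that is shed from the membrane, rose most, from 8.19 and 7.46 TPM to 17.2 and 18.1 TPM (log2 fold change 1.04, standard error 0.069, adjusted p = 0.00349 in limma). Efna3, a close relative of Efna1, rose from 22.1 and 22.9 TPM to 49.4 and 43.4 TPM (log2 fold change 0.97, adjusted p = 0.00409 in limma). It was the most abundant of the ephrin-A genes. Angptl8, a relative of Angptl4 that also acts on lipoprotein lipase, rose from 16.1 TPM in each monolayer culture to 23.3 and 26.2 TPM (log2 fold change 0.54, adjusted p = 0.00711 in limma).

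Efnb3, a membrane ligand of EphB receptors, and the Notch ligand Jag2 rose by 0.49 and 0.46 on the log2 scale. Ptn, the gene of the heparin-binding growth factor pleiotrophin, was the ligand that fell, from 14.1 and 14.9 TPM to 7.26 and 10.6 TPM (log2 fold change -0.70, adjusted p = 0.0233 in limma). Efnb3 and Ptn were each called in 7 of 12 other settings. With either 3D replicate left out, fewer genes were called in this list, as was so over all genes tested. The nearest relatives of Prok2, Stc1, Adm and Vegfc, named here after their values were seen, were at or near 0. Prok1 and Stc2 were listed at 0 in all cultures, Adm2 was at 0 in 3 of them, and Vegfd did not exceed 0.0274 TPM.

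Another list held 37 genes for the processing and shedding of such ligands, of which 26 passed the filter. In limma 7 of these rose (26.9%) and 1 fell (3.85%), with a median log2 fold change of 0.085. The values over all genes tested were 18.5%, 19.4% and -0.0032, so the share that rose was not far from that over all genes. Itm2b, whose product binds the amyloid precursor protein, rose from 72.0 and 76.1 TPM to 139 and 124 TPM (log2 fold change 0.78, adjusted p = 0.00505 in limma). Pam, the enzyme that amidates peptides such as adrenomedullin, rose from 153 and 149 TPM to 208 and 256 TPM (log2 fold change 0.56, adjusted p = 0.0112 in limma). Adam10, the main alpha-secretase of App, rose from 18.7 and 15.9 TPM to 23.5 and 27.3 TPM (log2 fold change 0.49, adjusted p = 0.0137 in limma).

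The prohormone-processing genes Pcsk2 and Cpe had log2 fold changes of 0.58 and 0.25 (adjusted p = 0.00410 and 0.0425 in limma). Aph1b, a subunit of gamma-secretase, was the gene that fell, by 0.24 on the log2 scale (adjusted p = 0.0491 in limma). Cpe was called in 4 and Aph1b in 2 of the 12 other settings. Fewer genes of this list were also called when either 3D replicate was left out, as was so over all genes tested.

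The other App-cleaving enzymes, given here after their values were seen, differed less. Bace1, the main beta-secretase, had 8.80 and 6.68 TPM in 2D, against 9.26 and 8.71 TPM in 3D, with overlapping groups (limma, adjusted p = 0.295). Adam17, another sheddase of App, also overlapped (adjusted p = 0.453 in limma). Of the gamma-secretase subunits, Ncstn rose from 39.4 and 37.1 TPM to 45.1 and 46.5 TPM (log2 fold change 0.21, adjusted p = 0.0302 in limma), while Psen2 and Psenen had adjusted p of 0.314 and 0.0670. Aplp2, a close relative of App from the ligand list, rose from 179 and 175 TPM to 222 and 216 TPM (log2 fold change 0.26, adjusted p = 0.0181 in limma). Aplp1, the other relative, had 317 and 339 TPM in 2D, against 378 and 393 TPM in 3D (limma, adjusted p = 0.0904).

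Several of the 10 factors are known HIF targets, so a list of 42 other HIF targets was set beside them. Of the 33 that passed the filter, 13 rose (39.4%) and 1 fell (3.03%) in limma, with a median log2 fold change of 0.23. The shares over all genes tested were 18.5% and 19.4%, and the median was -0.0032. The largest rises at a mean of at least 5 TPM were those of Bhlhe40, Pfkfb3, P4ha1, Plod1 and Pfkl, with log2 fold changes of 1.86, 1.84, 1.71, 0.91 and 0.73. Ndrg1 fell by 0.47. Slc2a1, the glucose transporter GLUT1, which was singled out after its values were seen as a widely used HIF target, had 15.2 and 14.6 TPM in 2D, against 13.5 and 13.3 TPM in 3D (limma, adjusted p = 0.0696). Leaving out either 3D replicate gave fewer calls in this list, as it did over all genes tested. The part of oxygen supply in any of these differences was not tested.

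**Figure D4:**
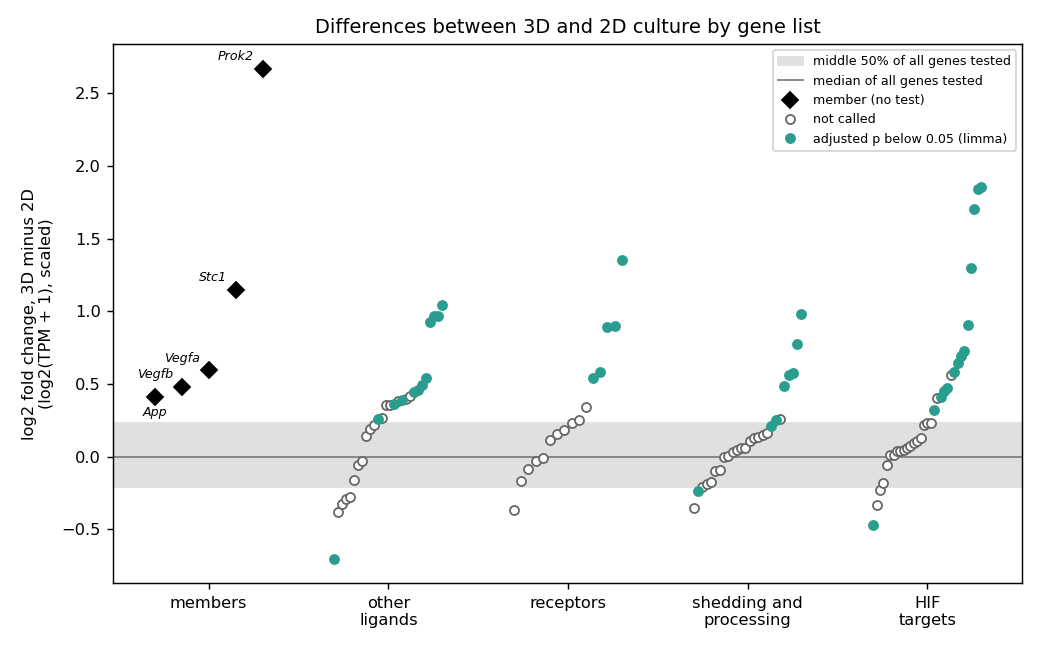
Log2 fold change (3D minus 2D, on log2(TPM + 1) after scaling) of every gene that passed the filter in each list. Diamonds are the factors, which have no test, filled circles are genes with an adjusted p below 0.05 in limma, open circles are the other genes, and the gray band holds the middle 50% of all genes tested. All 5 factors lie above the band, with Prok2 at 2.67, and each other list has genes inside, above and below it.

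The genes whose 4 values lay nearest to those of Vegfa were AABR07044925.1, Agtpbp1, Ac1576, Robo2 and Slc12a2. Likeness was the Euclidean distance between log2 values, each gene centered on its own mean, over 4 cultures and 7612 genes with a mean of at least 10 TPM. Robo2, which encodes an axon guidance receptor of the Slit ligands, had 15.0 and 12.3 TPM in 2D, against 22.7 and 20.0 TPM in 3D. The distances ran from 0.0282 to 0.0633, and the log2 fold changes of the 5 genes from 0.57 to 0.65. With 4 values per gene and 7612 genes, some genes lie close to any profile, and shared regulation was not tested.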

How the data were processed

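Polyadenylated RNA of 4 INS-1 cultures was sequenced as 75 bp single-end reads. The authors quantified transcripts with Salmon 1.2 against a reference that they named as rn4, with the human insulin gene added. The deposited values are TPM per transcript, written with decimal commas. Transcripts were added up by symbol. Scaling factors were unweighted TMM factors from genes averaging 1 TPM or more, trimming 30% of M and 5% of A per end. For these genes log2(TPM + 1) was fitted with limma 3.58.1 in R 4.3.3 (empirical Bayes with an intensity trend, no covariate). P-values were adjusted by Benjamini-Hochberg across all 11959 genes tested, and the fit was tested on simulated data. The DESeq2 test of the methods needs counts and was not repeated. For 1 gene, the smallest two-sided p of an exact permutation test with 2 cultures per group is 0.33. The methods call the cultures biological replicates, and whether they came from separate thaws was not given in the sources used here.

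The factors and lists were chosen with earlier results of these data known. Named list genes are the 5 largest rises and 3 largest falls called, without overlap between groups and with a mean of at least 5 TPM, and the receptors of the factors. Other genes, such as Fgfr3 and Fgf13, were named after their values were seen. Older symbols were matched through RefSeq (GRCr8). Alternatives were the scaling, filter, pseudocount, empirical Bayes trend, threshold, replicate block and each culture left out.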

Additional observations from a re-analysis of the deposited data

How the results depend on the processing

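The direction of all 5 factors that passed the filter was the same in every setting tried for them, with log2 fold changes of 0.49 to 0.70 for Vegfa, 0.43 to 0.53 for Vegfb and 0.38 to 0.45 for App. For each of them both 3D cultures lay above both monolayer cultures, so leaving out 1 culture could not reverse the direction. The factors were also chosen on this difference, so nothing is read from the lack of a reversal. Over all genes, 4537 were called, and an adjusted p below 0.01 left 1412 of all genes, 4 of the other ligands and 3 of the processing genes. Empirical Bayes without a trend called 5 of the processing genes. With 1 culture left out in turn, the calls ran from 135 to 4494 over all genes, from 1 to 10 among the other ligands, from 1 to 5 among the receptors, from 0 to 8 among the processing genes and from 4 to 15 among the HIF targets. The lowest counts were those without 3D replicate 1 (135 over all genes), and the count over all genes was 1028 without 3D replicate 2, against 4494 and 3238 without 2D replicates 1 and 2, which also leave 1 culture in a group. Without a 3D culture the error came from the monolayer pair alone, and without a 2D culture from the 3D pair alone. The cause of the uneven counts was not tested further. The deviations of same-numbered cultures had a correlation of -0.00616 over 11959 genes. With 2 cultures per group this cannot show whether same-numbered cultures shared a batch. A fit with the replicate block called 4810 genes. The other alternatives moved no count by over 1.5 times. TPM keep no depth, so levels below 1 TPM, those of Vegfc, Pgf, Efna1 and Adm, have no stated precision.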
